A study of Homo sapiens with 9 samples.

Results

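The cytosolic ribosomal protein genes are the nuclear genes for the proteins of the ribosome that translates most cellular messenger RNA. They were taken here as the rows of the deposited count table that are annotated as protein-coding and carry a gene symbol of the RPL or RPS series, together with RPLP0, RPLP1, RPLP2 and RPSA. Rows on the Y chromosome and the RPS6K kinases were left out. This gave 84 genes of 58735 rows, 52 of the large and 32 of the small subunit. The rule used names only, not measured values, but it was chosen with earlier results of these data known. Among the related genes the rule does not match are FAU, which encodes a ribosomal protein fused to a ubiquitin-like protein, and RPL36AL.

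RNA was sequenced from U87, an established human glioblastoma line, grown in DMEM with fetal bovine serum. One group stably carried the PCDH vector alone (PCDH), one the R132H mutant of isocitrate dehydrogenase 1 (IDH1mt), and one the same mutant with the further change C269S, of a cysteine to serine (C269S). Each group had 3 libraries, and the series was set up around palmitoylation of the mutant enzyme by itself. No group with introduced wild-type IDH1 was analysed here, all groups keep the IDH1 genes of U87, and neither the number of selected lines per construct nor separate cultures for the 3 libraries is given. The p-values therefore rest on the spread among libraries that may be technical repeats.

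The ribosome joins a small subunit, which reads the messenger RNA, to a large subunit, which forms peptide bonds. Each subunit holds ribosomal RNA and a set of proteins that are needed in nearly equal numbers of copies. Most messages of these proteins begin with a cytosine followed by a run of pyrimidines, the 5′ terminal oligopyrimidine tract, through which the mTOR kinase controls how strongly they are translated. That control acts on translation, which RNA sequencing does not measure. Growing tumour cells, glioblastoma among them, make ribosomes at a high rate, and MYC raises transcription of ribosomal genes.

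Total counts per library lay between 19108925 and 24803711, and 16874 genes passed the filter on low counts. Levels are given as CPM, counts relative to a library total that was scaled by the TMM method (trimmed mean of M values), unless FPKM is named. The IDH1 level was 111 ± 7.97 CPM (SD, n = 3) with the vector, 677 ± 16.5 CPM with the R132H mutant and 739 ± 30.3 CPM with the C269S form, so the groups with an introduced IDH1 were above the vector group in all libraries. The mesenchymal and glioma markers VIM (2656 to 3129 CPM) and CD44 (2619 to 3439 CPM) were high, whereas the glial marker GFAP lay between 2.84 and 4.34 CPM. Of 6 markers of other cell types, PECAM1 reached 7.20 CPM, and PTPRC, CD68, EPCAM, RBFOX3 and MBP stayed at or below 2.49 CPM in each library.

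The start sites of the members show the tract in the genome sequence. RefSeq start windows on GRCh38.p14 were matched to 67 of the 84 genes, 11 of them with several starts. A tract, here a C at the annotated start followed by at least 4 further bases C or T, was found in 47 of them (70.2%) and in 5.14% of the 27305 genes with a window. Allowing a shift of up to 5 bases gave 54 genes (80.6%) against 25.2% of all genes. The following windows of 30 bases are centred on the start, with the tract in capitals. They belong to genes with called differences, to some of the genes with the highest levels, and to a pair of duplicated genes.
RPL21 (chr13:27251543-27251572, plus strand): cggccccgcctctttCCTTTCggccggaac
RPL12 (chr9:127451392-127451421, minus strand): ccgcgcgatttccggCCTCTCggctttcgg
RPL13A (chr19:49487593-49487622, plus strand): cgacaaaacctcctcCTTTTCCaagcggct
RPS21 (chr20:62387088-62387117, plus strand): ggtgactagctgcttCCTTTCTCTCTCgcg
RPS12 (chr6:132814554-132814583, plus strand): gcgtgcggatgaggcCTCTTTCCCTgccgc
RPLP0 (chr12:120201097-120201126, minus strand): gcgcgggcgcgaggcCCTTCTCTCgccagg
RPS27 (chr1:153990747-153990776, plus strand): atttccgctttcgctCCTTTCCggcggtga
RPS27L (chr15:63157463-63157492, minus strand): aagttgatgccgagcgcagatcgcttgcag
In the shown windows with a tract, it begins at the annotated start, where the first definition places it. Its length runs from 6 bases in RPL21 and RPL12 to 12 in RPS21. RPS27L, a duplicate of RPS27, has no tract at its annotated start, so its window has no capitals. In some members not shown the tract is shifted, as in RPL19, where it lies at -1 and -5 from the 2 annotated starts.

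In the 300 bases from 250 before to 50 after the start, searched on both strands, CCGGAAG, the core of sites for ETS-family factors, occurred in 24 of the 67 genes (35.8%) and in 12.2% of all genes. GGGCGG, the core of an SP1 site, occurred in 39 (58.2%) against 48.3%, and AAGATGGC, the core of a YY1 site, in 7 (10.5%) against 3.52%. TATAAA, the core of a TATA box, occurred in 7 of 67 (10.5%) against 14.0%. These shares were not tested. None of these matches shows that a factor binds there. RPS2 was not matched.

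The members together took 2.46%, 2.51% and 2.40% of all counts in the PCDH libraries, 2.50%, 2.33% and 2.47% in IDH1mt, and 2.28%, 2.38% and 2.45% in C269S. The ranges of the 3 groups overlap. Genes of the large subunit gave between 1.90 and 1.95 times as many counts as genes of the small subunit in every library, so the ratio of the subunits differed by less between groups (means 1.93, 1.93 and 1.94) than between libraries of a group. Processed pseudogenes of ribosomal proteins, copies scattered through the genome that share most of their sequence, filled 1144 further rows. Their summed counts were 3.52% ± 0.0506 (SD, n = 3) of the members' counts in PCDH, 3.56% ± 0.0586 in IDH1mt and 3.55% ± 0.0885 in C269S. Reads that fit both a gene and its pseudogenes may have been lost or misplaced, so the levels of single members are uncertain. The summed share does not bound this for a single gene. In PCDH the pseudogene rows of RPS2 summed to 106 CPM against 465 CPM for RPS2. Those of RPL12 summed to 2.08 CPM against 200 CPM for RPL12.

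Per length, on the deposited FPKM scale, the genes with the highest mean levels over the 9 libraries were RPS12 (452 FPKM), RPL41 (430 FPKM), RPL8 (325 FPKM), RPLP0 (297 FPKM) and RPL19 (277 FPKM). RPL41 encodes the shortest protein of the set, and RPL8 and RPL19 encode core proteins of the large subunit. The median over the 84 genes was 79.9 FPKM, and 74 genes were above 10 FPKM. At the lower end stood RPL10L at 0, RPL3L at 0.0562 FPKM, RPS10 at 0.269 FPKM and RPL36A at 0.732 FPKM. RPL10L and RPL3L are known for expression in testis and striated muscle, respectively. RPL10L had 0 counts in all 9 libraries, which allows up to 0.0154 CPM from 3 counts over their summed total, and RPL3L had 0 to 8 counts, so neither was tested. RPS10 and RPL36A are core ribosomal proteins whose genes share exons with a neighbour.

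**Figure D1:**
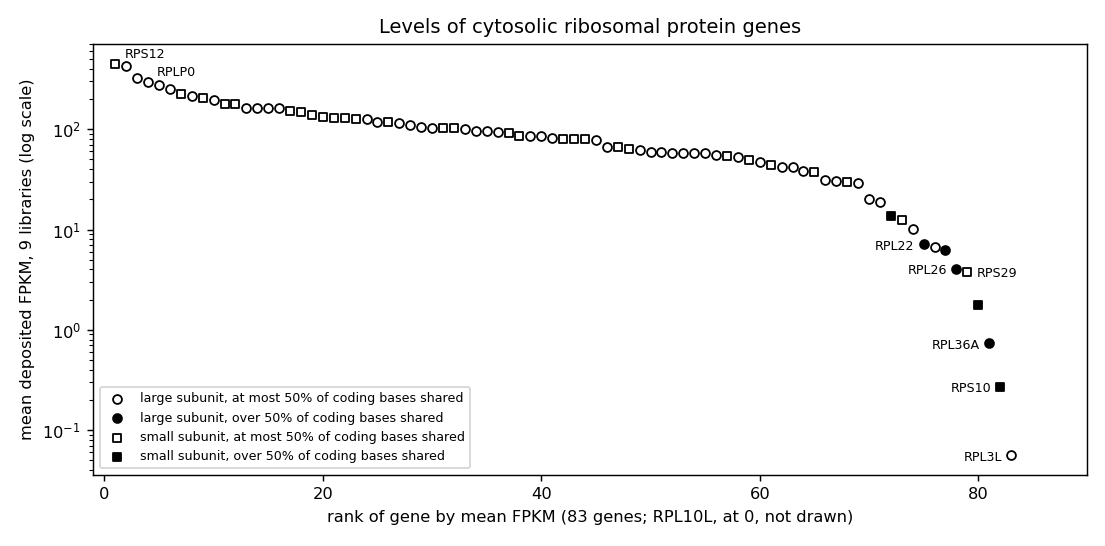
Mean deposited FPKM over 9 libraries (log scale) of 83 ribosomal protein genes by rank, with circles for the large and squares for the small subunit. Filled symbols mark the 7 genes with over 50% of their coding bases inside another gene on the same strand, all of which lie among the lower levels, from 13.5 FPKM for RPS15A down to 0.269 FPKM for RPS10.

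In GENCODE release 29, 7 members have more than 50% of their coding bases inside an exon of another gene on the same strand. Among these were RPL17 (100%), RPL36A (94.3%), RPS10 (92.1%), RPL26 (71.0%), RPL22 (59.9%) and RPS15A (54.6%). The partners of RPL17, RPL36A and RPS10 are readthrough genes, which themselves had at most 3 counts in any library (RPL17-C18orf32), none (RPL36A-HNRNPH2) and at most 1 (RPS10-NUDT3). How the counting treated reads that fit several genes is not given in the sources used here, so the levels of these 7 genes are uncertain. The length used matters too. The deposited length equals the union of all annotated exons, and for RPL41 it is 1088 bases against a coding length of 75. Per kilobase of coding sequence RPL41 came first with 6280 CPM per kilobase, ahead of RPLP1 (1569), RPL37A (1306) and RPLP0 (1257), while RPS12 moved from the first to the 13th place. This ordering was added after the FPKM values were seen.

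Whether the R132H mutant cells differed from vector cells in these genes was asked first. RPL21, RPS2, RPL12 and RPL13A were higher in IDH1mt than in PCDH, by 1.12- to 1.26-fold, and no member was called lower. The test was edgeR's quasi-likelihood F test over all 16874 genes, and a gene was called at a Benjamini-Hochberg adjusted p under 0.05. So 4 of the 82 tested members (4.88%) were called higher, where 7.18% of all genes tested were, and 0 were called lower, where 6.9% of all genes were. At an unadjusted p under 0.05, 9 members were higher and 1 lower, where 2156 and 2240 of all 16874 genes were. DESeq2 and limma-voom also called 0 members lower, where they called 1027 of 15413 and 1141 of 16874 genes lower.

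RPL21, a large subunit protein, stood at 182, 140 and 148 CPM in the PCDH libraries, 196, 195 and 198 CPM in IDH1mt, and 176, 189 and 180 CPM in C269S. All IDH1mt libraries were above all PCDH libraries, and the PCDH libraries were spread widely. The log2 fold change of IDH1mt against PCDH was 0.33 ± 0.07 (SE; edgeR adjusted p = 0.00131). Against PCDH the C269S value was 0.22 ± 0.07 (edgeR adjusted p = 0.139), and C269S lay below IDH1mt without overlap at -0.11 ± 0.07 (edgeR adjusted p = 0.45). Without PCDH replicate 1, the library nearest to the mutants, RPL21 was also called higher in C269S (0.34, edgeR adjusted p = 0.00397). The gene lies on chromosome 13, from base 27251309 to 27256691 of the plus strand on GRCh38, and its 66 pseudogene rows summed to 17.7 ± 1.57 CPM (SD, n = 3) in PCDH and 17.8 ± 0.944 CPM in IDH1mt.

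RPS2, a small subunit protein near the path of the messenger RNA, stood at 465, 499 and 430 CPM in PCDH, 550, 520 and 555 CPM in IDH1mt, and 460, 500 and 539 CPM in C269S. IDH1mt and PCDH did not overlap, while C269S spanned the gap between them. The log2 fold change of IDH1mt against PCDH was 0.22 ± 0.06 (SE; edgeR adjusted p = 0.0104). Its 20 pseudogene rows summed to 106 ± 11.6 CPM (SD, n = 3) in PCDH and 121 ± 4.99 CPM in IDH1mt, so RPS2 and its copies cannot be separated with certainty. The call was lost without IDH1mt replicate 1 or 3 (edgeR adjusted p = 0.056 and 0.068).

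RPL12, which forms the base of the stalk that recruits elongation factors, stood at 203, 189 and 208 CPM in PCDH, 236, 216 and 241 CPM in IDH1mt, and 197, 208 and 220 CPM in C269S. Every IDH1mt library was above every PCDH library, and C269S overlapped both. The log2 fold change of IDH1mt against PCDH was 0.21 ± 0.06 (SE; edgeR adjusted p = 0.0181). The summed level of its 50 pseudogene rows was 2.08 ± 0.60 CPM (SD, n = 3) in PCDH and 3.99 ± 0.391 CPM in IDH1mt. RPL12 was no longer called without PCDH replicate 2 (edgeR adjusted p = 0.108), IDH1mt replicate 1 (0.093) or IDH1mt replicate 3 (0.122).

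RPL13A, a large subunit protein that also has a described role in silencing inflammatory messages, stood at 443, 466 and 422 CPM in PCDH, 506, 476 and 513 CPM in IDH1mt, and 420, 461 and 468 CPM in C269S. The lowest IDH1mt library lay just above the highest PCDH library, and C269S overlapped PCDH. The log2 fold change of IDH1mt against PCDH was 0.17 ± 0.06 (SE; edgeR adjusted p = 0.0401). This call was lost when PCDH replicate 1 or 3, IDH1mt replicate 1 or 3, or C269S replicate 2 was left out, with edgeR adjusted p-values from 0.054 to 0.179.

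**Figure D2:**
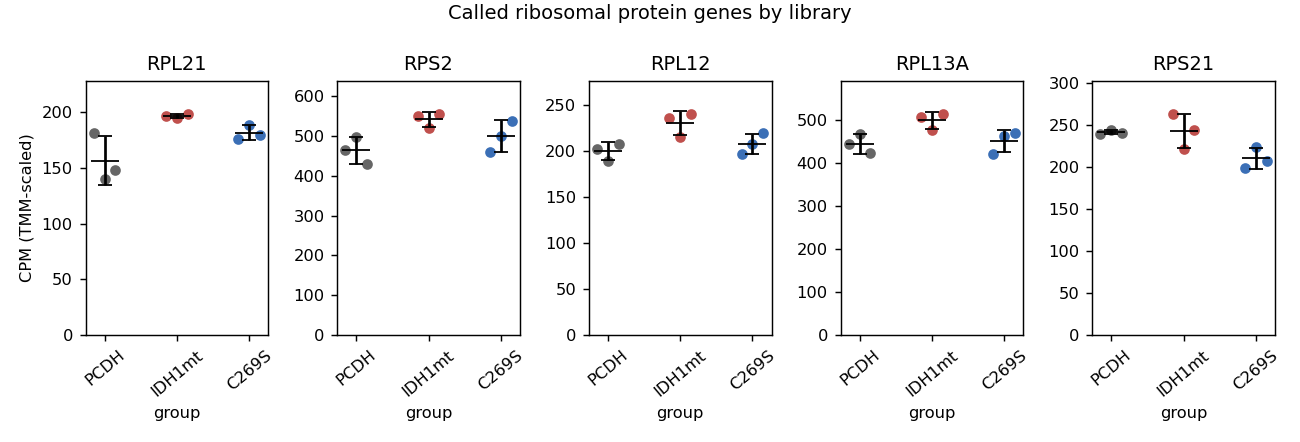
CPM (TMM-scaled, axis from 0) of the 5 called ribosomal protein genes in each library, with bars for the mean and SD of 3 libraries per group. RPL21, RPS2, RPL12 and RPL13A are higher in IDH1mt than in PCDH without overlap, whereas RPS21 is lowest in C269S and its C269S and IDH1mt libraries overlap.

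RPS10, at 0.492, 0.464 and 0.532 CPM in PCDH and 0.884, 0.988 and 0.643 CPM in IDH1mt, had the largest fitted rise of the tested members (0.76 ± 0.53 SE, edgeR adjusted p = 0.391) on few counts. Leaving out PCDH replicate 3 made RPL8 (-0.16, edgeR adjusted p = 0.04998) and RPS25 (-0.25, 0.00628) called lower and RPL5 (0.17, 0.0266) called higher. In that fit 1574 of 17171 genes were called higher and 1474 lower, against 1211 and 1164 of 16874 with all libraries.

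The C269S cells were then set against the vector. Between C269S and PCDH, edgeR called 0 of 82 members higher and 0 lower, where it called 0.883% of all genes higher and 0.533% lower. At an unadjusted p under 0.05, 1 member was higher and 3 were lower, where 1040 and 979 of all 16874 genes were. DESeq2, limma-voom and limma on FPKM called 0 members in each direction. Of all genes, DESeq2 called 226 of 12295 higher and 119 lower, and limma-voom called 135 of 16874 higher and 88 lower. Limma on log2 FPKM plus 1 called 57 of 16874 higher and 28 lower, and plus 0.1 called 59 and 28. Without PCDH replicate 3, 4 members were called lower, namely RPS25 (-0.25, edgeR adjusted p = 0.0182), RPS9 (-0.20, 0.0308), RPS21 (-0.20, 0.0375) and RPL8 (-0.18, 0.0473). In that fit 548 of 17171 genes were called higher and 355 lower, against 149 and 90 of 16874 with all libraries. RPL8 stood at 734, 823 and 655 CPM in PCDH and at 637, 698 and 722 CPM in C269S, so these groups overlap, and PCDH replicate 3 was the lowest vector library.

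The comparison of C269S with IDH1mt asked how the cells with the added cysteine change differ from those with R132H alone. RPS21, a small subunit protein, was lower in C269S, and no member was called higher. So 1 of 82 members was called lower (2.61% of all genes) and 0 higher (2.29% of all genes). DESeq2 and limma-voom each called 0 members higher, where they called 405 of 14165 and 343 of 16874 genes higher. At an unadjusted p under 0.05, 0 members were higher and 13 lower, where 1401 and 1416 of all 16874 genes were. This comparison shares the IDH1mt libraries with the first, and the first 2 share the PCDH libraries, so the 3 are not independent.

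RPS21 stood at 239, 244 and 240 CPM in PCDH, 262, 221 and 243 CPM in IDH1mt, and 199, 224 and 207 CPM in C269S. IDH1mt replicate 2 was below C269S replicate 2, so these groups overlap, while all C269S libraries were below all PCDH libraries. The log2 fold change of C269S was -0.21 ± 0.06 against IDH1mt (SE; edgeR adjusted p = 0.0422) and -0.20 ± 0.06 against PCDH (edgeR adjusted p = 0.109). The call was lost without IDH1mt replicate 1 (edgeR adjusted p = 0.337), IDH1mt replicate 3 (0.152), C269S replicate 1 (0.252) or C269S replicate 3 (0.105). Without PCDH replicate 3, which is no part of this comparison but enters the shared spread, 5 members were called lower, RPS21 with RPS15A, RPS12, RPL28 and RPL3. In that fit 635 of 17171 genes were called lower, against 440 of 16874 with all libraries. RPS15A stood at 95.4, 104 and 91.2 CPM in IDH1mt and 85.7, 84.7 and 81.1 CPM in C269S, which do not overlap (-0.21 ± 0.07 SE, edgeR adjusted p = 0.0704 with all libraries).

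The members changed little in any comparison. The median log2 fold change over the 82 genes was 0.03 for IDH1mt against PCDH, -0.03 for C269S against PCDH and -0.07 for C269S against IDH1mt, against -0.01, -0.01 and 0.00 over all genes. Large and small subunit genes gave medians of 0.03 and 0.03, -0.02 and -0.04, and -0.06 and -0.07 in the same order. Scaling by total counts alone turned the first pair to -0.01 and -0.02. The 95% interval of the fold change lay inside 1.25-fold in either direction for 73, 72 and 72 of the 82 members, and for 32.0%, 41.1% and 37.8% of all genes in the same order. Precision rises with level, so genes at 100 CPM or more were also compared. At that level 66, 65 and 66 of 69 members (95.7%, 94.2% and 95.7%) had such an interval, and 74.7%, 90.9% and 85.7% of the 2063 genes did. Among those 2063 genes 28.1%, 4.65% and 13.4% were called, against 5.80%, 0% and 1.45% of the 69 members. This level was chosen after the data were seen.

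**Figure D3:**
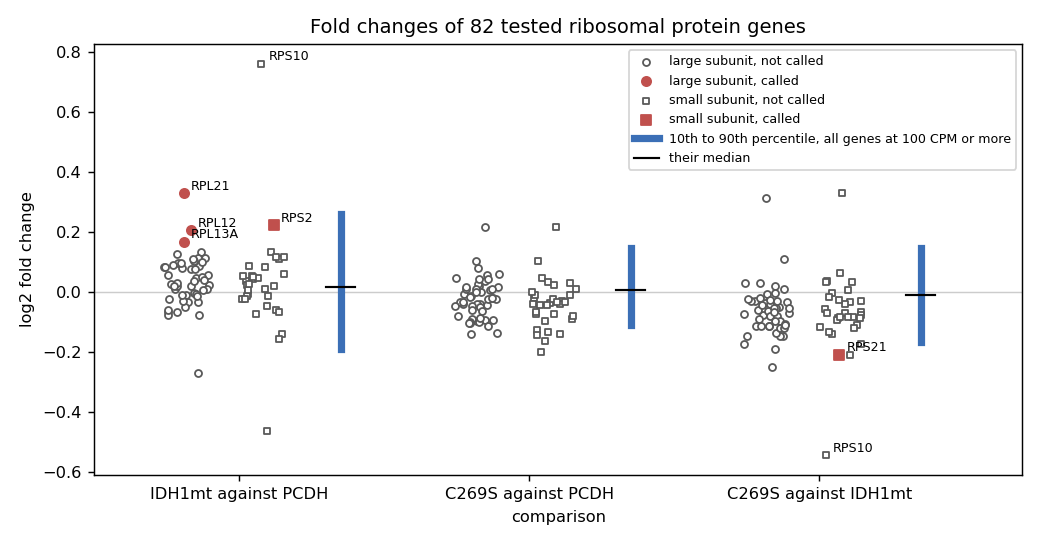
Log2 fold change of 82 tested ribosomal protein genes in 3 comparisons, with circles for the large and squares for the small subunit, filled red where edgeR's adjusted p was under 0.05. Blue bars span the 10th to the 90th percentile of the 2063 genes at 100 CPM or more, with their median as a line, and most members lie within them.

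Groups without overlap were counted as well. Of the 82 members, 8 were above and 2 below in IDH1mt against PCDH, where 14.3% and 14.9% of all genes were. In C269S against PCDH 1 was above and 6 below, where 7.62% and 7.57% of all genes were. In C269S against IDH1mt 1 was above (RPL39L) and 8 below, where 11.8% of all genes were above and 11.8% below. For C269S the counts below, 6 and 8 of 82, are near the shares of all genes, and none of these shares was tested.

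The members moved together between libraries of 1 group. IDH1mt replicate 2 was the lowest of its group for 65 of 82 members (79.3%), where it was lowest for 33.9% of all genes. C269S replicate 1 was the lowest for 61 (74.4%; 31.5% of all genes) and C269S replicate 3 the highest for 53 (64.6%; 36.6% of all genes). In PCDH, replicate 3 was the lowest for 40 members (48.8%; 37.6% of all genes). Measured as the median over members of the log2 difference from the PCDH mean, the libraries stood at 0.00, 0.01 and -0.03 in PCDH, 0.07, -0.03 and 0.06 in IDH1mt, and -0.08, -0.03 and 0.03 in C269S. The ranges of the 3 groups overlap, and the range within IDH1mt and within C269S exceeded the difference between any pair of group means. C269S was below IDH1mt for 70 of 82 members (49.9% of all genes were below), yet the members share their libraries and are not replicates. Without C269S replicate 1 the medians for C269S against IDH1mt were -0.02 for the large and -0.04 for the small subunit. IDH1mt replicate 2 had the highest total of all libraries and C269S replicate 1 the second-lowest; the part of depth in this order was not tested.

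**Figure D4:**
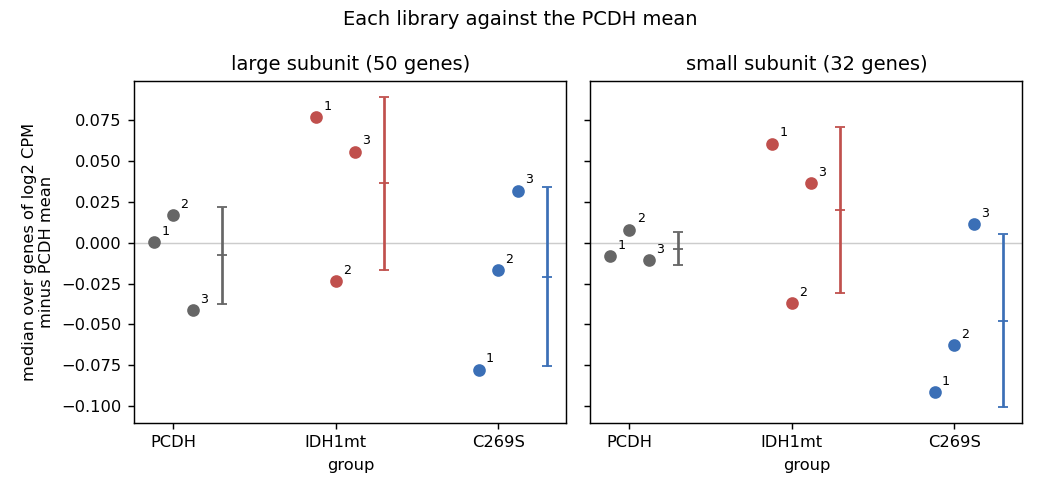
Median over 50 large subunit genes (left) and 32 small subunit genes (right) of log2 CPM minus the PCDH mean, 1 point per library with its replicate number, and bars for the mean and SD of 3 libraries. IDH1mt replicate 2 and C269S replicate 1 lie low in both panels, and the ranges of the groups overlap.

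The stalk of the large subunit is built from RPLP0, on which dimers of RPLP1 and RPLP2 sit, with RPL12 at its base. RPLP0 stood at 1219, 1197 and 1261 CPM in PCDH, 1187, 1105 and 1237 CPM in IDH1mt, and 1124, 1171 and 1259 CPM in C269S, with all 3 groups overlapping. Its interval for IDH1mt against PCDH ran from -0.17 to 0.05 on the log2 scale. RPLP1 was at 569, 546 and 530 CPM in PCDH, 546, 549 and 558 CPM in IDH1mt, and 501, 500 and 530 CPM in C269S. C269S was thus the lowest group, but it was only just separate from PCDH. Its highest library was at 529.8 CPM and the lowest PCDH library at 530.2 CPM. RPLP1 was not called (-0.10 ± 0.05 SE against PCDH, edgeR adjusted p = 0.418). RPLP2 overlapped between all groups, with differences from -0.06 to -0.01. Of the 4 stalk genes only RPL12 was called, in IDH1mt against PCDH.

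RPL5 and RPL11 bind the 5S ribosomal RNA, and outside the ribosome the same particle inhibits MDM2. RPL11 stood at 278, 299 and 276 CPM in PCDH, 329, 288 and 319 CPM in IDH1mt, and 272, 305 and 313 CPM in C269S. RPL5 stood at 208, 199 and 233 CPM in PCDH, 229, 225 and 230 CPM in IDH1mt, and 209, 210 and 210 CPM in C269S. The PCDH library with the highest RPL5 exceeded the IDH1mt libraries, so IDH1mt and PCDH overlap. All C269S libraries were below all IDH1mt libraries for RPL5 (-0.12 ± 0.06 SE, edgeR adjusted p = 0.290). Neither RPL11 nor RPL5 was called in any comparison (0.13 ± 0.06 for RPL11 and 0.10 ± 0.06 for RPL5 in IDH1mt against PCDH, SE; edgeR adjusted p = 0.153 and 0.292). The proteins of 8 genes, RPL4, RPL17, RPL19, RPL23A, RPL26, RPL31, RPL35 and RPL39, line the peptide tunnel or lie around its opening. None of these 8 genes was called in any comparison.

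In the small subunit, RPS6, the ribosomal substrate of the S6 kinases, stood at 245, 250 and 263 CPM in PCDH, 265, 247 and 249 CPM in IDH1mt, and 247, 254 and 253 CPM in C269S. Its 95% intervals ran from -0.10 to 0.12 for IDH1mt against PCDH and from -0.12 to 0.10 for C269S against PCDH. RPSA, which is also known as a laminin receptor, lay between 566 and 645 CPM over the 9 libraries, and RPS27A, which is made as a fusion with ubiquitin, between 306 and 350 CPM. The differences for RPSA ran from -0.08 to 0.05 and those for RPS27A from -0.08 to -0.01, with overlapping groups. FAU and RPL36AL, which the naming rule misses, were not called either.

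Some ribosomal proteins have a duplicated gene, and the products of some of these duplicates can take the parent's place. Of the 7 duplicates, 5 were tested and none was called in any comparison. On the FPKM scale in PCDH, RPL22L1 was at 39.0 ± 1.17 FPKM (SD, n = 3) and its parent RPL22 at 6.92 ± 0.671 FPKM, and RPL26L1 was at 29.1 ± 1.67 FPKM against 4.01 ± 0.771 FPKM for RPL26. Both parents are among the genes whose coding bases are shared with a neighbour, so their levels are uncertain. Per kilobase of coding sequence, over the 9 libraries, these gaps were smaller, at 246 against 87.2 CPM per kilobase for RPL22L1 and RPL22 and 78.2 against 23.6 for RPL26L1 and RPL26. The other duplicates were below their parents on both scales. RPS27L, a p53-responsive duplicate, was at 12.5 ± 0.411 FPKM against 179 ± 8.95 FPKM for RPS27, RPL39L at 7.0 ± 1.19 FPKM against 55.8 ± 6.85 FPKM for RPL39, and RPL7L1 at 10.2 ± 0.292 FPKM against 101 ± 0.662 FPKM for RPL7. Per kilobase of coding sequence RPS27L reached 452 against 739 CPM per kilobase for RPS27, a much smaller gap than by FPKM, since its deposited length is 9127 bases against 1035 for RPS27 and both have 252 coding bases. The same measure gave 46.8 against 779 for RPL39L and RPL39 and 104 against 407 for RPL7L1 and RPL7. RPL3 was at 209 ± 5.12 FPKM and RPL10 at 105 ± 1.84 FPKM, far above RPL3L and RPL10L. The 3 RPL39L values were 5.85, 6.01 and 6.86 CPM in IDH1mt and 7.45, 8.46 and 7.31 CPM in C269S, without overlap (0.31 ± 0.16 SE, edgeR adjusted p = 0.328).

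Members were also split by the tract at the start, with no test of the difference between the sets. The 47 with a tract held 3 of the genes called higher in IDH1mt (RPL21, RPL12 and RPL13A) and had medians of 0.04, -0.04 and -0.07 in the 3 comparisons, and the 19 tested genes without a tract held none and had medians of 0.03, -0.01 and -0.05. In C269S against IDH1mt, 44 of the 47 genes with a tract and 13 of the 19 without were below 0, and 9 and 1 of them were lower at an unadjusted p under 0.05. Of all 16874 genes, 8422 were below 0 and 1416 were lower at that p. Small nucleolar RNA genes, which guide the modification of ribosomal RNA and are cut from introns, lie inside 28 members. All 4 genes called higher in IDH1mt against PCDH were among these 28, against 0 of the other 54 tested, with medians of 0.05 and 0.02. RPS21 hosts none. This split was made after the called genes were seen, and the difference between the 2 sets was not tested.

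Other genes of the translation machinery were counted in the same fit, in which 14.1% of all genes were called in IDH1mt against PCDH, 1.42% in C269S against PCDH and 4.90% in C269S against IDH1mt. None of the lists was tested as a set, and all were chosen with earlier results of these data known. Among 25 tested genes for translation factors and other proteins whose messages carry such tracts, IDH1mt against PCDH had 0 higher and 2 lower (8% called), LDHB (-0.39 ± 0.10 SE, edgeR adjusted p = 0.00593) and BTF3 (-0.20 ± 0.06, 0.013). C269S against PCDH had 0 calls in this list, and C269S against IDH1mt had 1, the tumour protein TPT1, lower at -0.20 ± 0.06 (edgeR adjusted p = 0.0287). Among 31 initiation factors and their regulators, EIF5 and EIF2A were higher in IDH1mt than in PCDH (0.41 ± 0.06 and 0.24 ± 0.07, edgeR adjusted p = 1.92e-05 and 0.0214). EIF4A1, which shares exons with a readthrough gene, was lower (-0.76 ± 0.16, edgeR adjusted p = 0.00102). No initiation factor was called in C269S against PCDH, and EIF5 alone was called, lower, against IDH1mt (-0.36 ± 0.06, edgeR adjusted p = 0.000315).

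Of 54 genes for ribosome assembly factors, 1 was higher and 4 lower in IDH1mt against PCDH (9.26% called, under the 14.1% of all genes), 1 higher and 0 lower in C269S against PCDH (1.85%), and 6 higher and 0 lower in C269S against IDH1mt (11.1%, against 4.90% of all genes). The median of this list was -0.08, 0.04 and 0.12 in that order. The helicase DDX21 was higher in C269S than in PCDH (0.29 ± 0.06 SE, edgeR adjusted p = 0.00596) and IDH1mt (0.27 ± 0.06, 0.00479), and RRP12 and NOLC1 were higher than in IDH1mt (0.35 ± 0.08 and 0.26 ± 0.06, edgeR adjusted p = 0.0057 and 0.00817). Of 14 genes of RNA polymerase I and its factors, 4 were lower in IDH1mt against PCDH (28.6% called), led by TAF1D (-0.47 ± 0.08, edgeR adjusted p = 0.000181) and the subunit gene ZNRD1 (-1.10 ± 0.22, 0.000485). TAF1D and ZNRD1 were higher in C269S than in IDH1mt (0.36 ± 0.09 and 0.74 ± 0.22, edgeR adjusted p = 0.00975 and 0.0483). Both comparisons use the IDH1mt libraries.

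Among 27 mTOR and MYC regulators, 7 were higher and 3 lower in IDH1mt against PCDH (37.0% called, against 14.1% of all genes). This list was chosen with earlier results of these data known, so its share cannot serve as a test of enrichment. The mTOR inhibitors DDIT4L (1.85 ± 0.10 SE, edgeR adjusted p = 2.58e-15) and DDIT4 (0.54 ± 0.06, 3.13e-07) and the MYC antagonist MXI1 (0.66 ± 0.07, 2.04e-08) had the lowest p-values. In C269S against PCDH this list had 0 higher and 1 lower, the S6 kinase gene RPS6KB2 (-0.33 ± 0.08, edgeR adjusted p = 0.0277). DDIT4L, DDIT4 and MXI1 were the 3 genes of the list called lower in C269S against IDH1mt. The 78 genes for mitochondrial ribosomal proteins had 1 higher and 5 lower in IDH1mt against PCDH (7.69% called, under the 14.1% of all genes), 0 in C269S against PCDH, and 1 lower in C269S against IDH1mt, with medians of -0.06, -0.01 and 0.05. Their medians thus had the opposite sign to those of the cytosolic set in the first and last comparison. With scaling by total counts alone, however, the cytosolic subunit medians of the first comparison were negative too. The contrast between the sets was not tested.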

How the data were processed

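Levels were read from a deposited table of whole-number read counts per gene and a deposited table of FPKM. The submitters' processing notes name HISAT2 2.0.5, featureCounts 1.5.0-p3 and the builds GRCh38 and hg38. Library kit, strand setting and read length are not given in the sources used here. Each FPKM deposited by the authors equals the count divided by length and library total, times 1 factor per library (0.969 to 1.02). The column prefixes Control, mt and CS stand for PCDH, IDH1mt and C269S, respectively.

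Genes were kept by filterByExpr in edgeR 4.0.16 (R 4.3.3), scaled by TMM and fitted over all 9 libraries with 1 mean for each group and without covariates. The robust quasi-likelihood F test was used, adjusted by Benjamini-Hochberg over all 16874 genes. The step was tested on simulated data. Alternatives used DESeq2 1.42.0 and limma 3.58.1. Counts of 0 were left as they are, and 3 counts served only for the upper limit of a member at 0 in all libraries. Gene models came from GENCODE release 29 and start windows from RefSeq (GRCh38.p14).

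The members and lists were chosen with earlier results of these data known. Named were called members, genes of fixed roles (stalk, 5S, RPS27A, RPSA, RPS6, duplicates with parents), the 5 highest and 5 lowest by FPKM, and up to 3 genes with the lowest p per other list. Members that were called only under an alternative or whose groups do not overlap were named after their values were seen. A few members are not reported here by name.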

Additional observations from a re-analysis of the deposited data

How the results depend on the processing

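Of the 4 members called higher in IDH1mt against PCDH, scaling by total counts alone left 2. Limma on log2 FPKM plus 1 and plus 0.1 left 1 each, and an adjusted p under 0.01 left 1 (RPL21). Total counts alone and the 2 FPKM fits called 918, 873 and 849 of 16874 genes higher, against 1211 in the main fit. Leaving out 1 library gave 1 to 4, where 860 to 1574 of the 17113 to 17454 genes then tested were called higher. The count of 0 lower became 1 with total counts alone and 0 to 2 with a library left out. Of all genes, 1691 were called lower with total counts alone and 745 to 1474 with a library left out, against 1164. For C269S against PCDH, leaving out a library gave 0 to 1 higher and 0 to 4 lower. Those fits called 65 to 548 of all genes higher and 38 to 355 lower. For C269S against IDH1mt, the 1 lower became 0 with total counts alone, limma on FPKM plus 1 or plus 0.1, or an adjusted p under 0.01. Total counts alone and the 2 FPKM fits called 347, 261 and 253 of 16874 genes lower, against 440 in the main fit. The count became 2 without a filter on low counts (412 of 33514 genes lower) and 3 with DESeq2 (466 of 14165). With the 6 libraries of the comparison alone it was 6 (647 of 16100 genes lower). With a library left out it was 0 to 5, where 258 to 635 of all genes were called lower. Apart from the replicate block, described next, the other settings kept the counts of called members within 1.5 times. Among them was the setting with members at 100 CPM or more, which was chosen after seeing the data.

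Same-numbered libraries of different groups showed no sign of deviating together (correlations of deviations from -0.087 to 0.056). Differently numbered ones gave -0.037 to 0.072. These correlations run over all genes, so they cannot exclude a pairing that affects only some genes. With the replicate number as a block, 3 members were higher in IDH1mt against PCDH and 0 lower in C269S against IDH1mt. That fit called 1043 and 329 of 16874 genes in the same order. The medians of the large and small subunit in IDH1mt against PCDH were -0.01 and -0.02 with total counts alone. The members took 2.53% of the counts outside the mitochondrial genome in PCDH and in IDH1mt and 2.45% in C269S. Of the protein-coding counts they took 2.52%, 2.50% and 2.44%.

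Depth limits most the members with few counts, such as RPS10 with 5 to 24 counts per library, and 3 libraries a group limit every value.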
